A study of Mus musculus with 50 samples.

Results

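Binding of the glucocorticoid receptor (GR, encoded by Nr3c1) in cortical astrocytes was compared with binding in fibroblasts exposed to a synthetic hormone, to ask which genomic sites GR occupies in both and which in only 1 of the 2 cell types. The comparison used 5 of the 50 libraries of the series, 3 from astrocytes and 2 from fibroblasts, and another 34 libraries with peak lists served for reference. Binding was mapped by CUT&RUN, in which an antibody brings a nuclease to its target so that DNA around the bound protein is cut out and sequenced. A site was a merged region with a peak in at least 2 libraries of a cell type, which gave 12458 astrocyte sites and 2885 fibroblast sites.

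The astrocytes came from primary visual cortex (V1) of wild-type C57BL/6 mice at postnatal day 14, kept in a normal light cycle (NR). As newborns the mice had received a virus that expresses an inactive Cre (ΔCre) and a nuclear-membrane GFP from the astrocyte promoter GfaABC1D, and 175000 GFP-positive nuclei were sorted for each library from V1 pooled over several mice. The fibroblasts were NIH/3T3, an established mouse line, grown in hormone-depleted serum and then given 200 nM dexamethasone (DEX) for 2 h, with 250000 nuclei in each library. The study counts the 2 3T3 libraries as biological replicates and does not say whether they came from separate cultures. Reference libraries for GR were astrocytes of dark-reared wild-type mice (DR) and astrocytes of NR floxed GR mice given ΔCre (GR-con) or active Cre (GR-KO). Excitatory neurons, inhibitory neurons and oligodendrocytes came from NR mice with Vglut1-Cre, Vgat-Cre or Olig2-Cre and a Cre-dependent nuclear label, Sun1-GFP. All reference mice were at postnatal day 14. The other GR references were 3T3 cells with DEX at 50000 nuclei or with vehicle at 50000 and 250000 nuclei. The remaining reference libraries mapped NFIA, a nuclear factor I protein, in the same cortical cell types of NR mice. The 2 groups differ in cell type, in culture against tissue, in a synthetic hormone against the animals' own and in the number of nuclei, and these cannot be told apart here.

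GR is a nuclear receptor that waits in the cytoplasm with HSP90 chaperones, enters the nucleus when it binds cortisol, corticosterone or DEX, and binds as a dimer to an inverted repeat, the glucocorticoid response element (GRE). It is known to bind mainly chromatin that other factors already keep open, so that its sites differ between tissues. AP-1 (FOS and JUN dimers) and the TEAD factors are common at fibroblast enhancers, while NFI proteins are abundant in astrocytes and bind TTGGCA half-sites.

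The sequences at a few sites show what these elements look like in each class. The first set are shared sites with a full GRE and no peak in any vehicle, DR or GR-KO library, 9 of the 12 best-ranked of that kind. The GRE had to lie within 50 bp of a summit, the position of highest signal, in any of the 5 libraries. At Irf2bp2, Mt1, Klf9 and Idh2 no astrocyte summit lay that close to the printed GRE, and at Lama2 no 3T3 summit did. They are printed from the + strand of GRCm38 (mm10), in the order Irf2bp2 at chr8:126736662-126736734, Per1 at chr11:69097069-69097097, Tob2 at chr15:81839769-81839841, Mt1 at chr8:94178987-94179015, Zbtb16 at chr9:48736478-48736550, Lama2 at chr10:27387662-27387734, Klf9 at chr19:23135063-23135135, Sept9 at chr11:117259783-117259855 and Idh2 at chr7:80134667-80134739, each named after the nearest protein-coding gene. Capitals mark the GRE pattern, the half-sites GNACA and TGTNC with 3 bases of any kind between them, which reads alike on both strands.
Irf2bp2: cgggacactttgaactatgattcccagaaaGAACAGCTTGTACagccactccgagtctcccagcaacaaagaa
Per1: agccaagaGAACACGATGTTCcctagtgc
Tob2: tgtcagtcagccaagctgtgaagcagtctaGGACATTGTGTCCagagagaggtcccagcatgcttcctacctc
Mt1: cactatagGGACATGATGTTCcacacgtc
Zbtb16: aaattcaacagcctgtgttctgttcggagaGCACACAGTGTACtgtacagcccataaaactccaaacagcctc
Lama2: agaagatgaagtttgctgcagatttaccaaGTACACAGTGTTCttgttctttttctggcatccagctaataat
Klf9: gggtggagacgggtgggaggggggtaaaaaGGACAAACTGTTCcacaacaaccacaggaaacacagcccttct
Sept9: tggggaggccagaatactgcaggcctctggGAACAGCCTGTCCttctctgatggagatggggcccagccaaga
Idh2: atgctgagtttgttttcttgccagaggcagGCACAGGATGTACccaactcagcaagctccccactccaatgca

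The second set are 3T3-specific sites, shown because GRE and AP-1 set them apart from the astrocyte sites. Fkbp5 at chr17:28420292-28420364, Sgk1 at chr10:21785866-21785938 and Mat2b at chr11:40446971-40447043 have the GRE in capitals, and the Mat2b stretch also holds an AP-1 pattern near its end, in lower case. Snx9 at chr17:5822614-5822680 and Uqcc2 at chr17:27142044-27142110 have the AP-1 pattern TGANTCA in capitals.
Fkbp5: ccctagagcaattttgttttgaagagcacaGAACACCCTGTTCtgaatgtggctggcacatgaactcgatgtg
Sgk1: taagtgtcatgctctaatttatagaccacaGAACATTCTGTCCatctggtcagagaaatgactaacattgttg
Mat2b: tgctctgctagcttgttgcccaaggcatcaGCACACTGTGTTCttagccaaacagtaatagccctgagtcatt
Snx9: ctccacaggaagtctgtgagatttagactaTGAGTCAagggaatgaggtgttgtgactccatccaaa
Uqcc2: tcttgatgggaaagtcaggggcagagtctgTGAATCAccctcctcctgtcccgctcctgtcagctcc

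The third set are astrocyte-specific sites. Ntm at chr9:29949201-29949266 and Plpp3 at chr4:105181257-105181322 carry the NFI half-site, in capitals, which is TTGGCA or, on the other strand, TGCCAA. Lpp at chr16:24326248-24326320 is 1 of the 96 astrocyte-specific sites with a GRE, in capitals.
Ntm: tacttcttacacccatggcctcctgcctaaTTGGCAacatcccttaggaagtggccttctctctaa
Plpp3: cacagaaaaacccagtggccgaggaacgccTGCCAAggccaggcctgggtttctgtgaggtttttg
Lpp: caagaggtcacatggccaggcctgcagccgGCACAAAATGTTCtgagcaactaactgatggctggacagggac

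The astrocyte lists held 14012, 2262 and 21539 peaks in replicates 1 to 3, and the 3T3 lists held 5010 and 4654. Every astrocyte peak had a q of at most 0.00998 and the 3T3 lists reached a q of 0.0496, so the lists had passed different thresholds and numbers of peaks and sites are not compared between cell types. The lists carry no read depth, and a region without a peak is one that was not called, not one shown to be unbound. Of the peaks, 89.1%, 93.6% and 57.9% in the astrocyte libraries and 58.2% and 62.9% in the 3T3 libraries lay on a site. Replicate 2 of the astrocytes stood apart by its short list, so most astrocyte sites rest on replicates 1 and 3.

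Astrocytes and 3T3 cells had few GR sites in common. Of the 12458 astrocyte sites, 215 overlapped a 3T3 site (1.73%, 95% Wilson interval 1.51 to 1.97), and these were 213 of the 2885 3T3 sites (7.38%, 6.48 to 8.39). A further 278 astrocyte sites met a peak of a single 3T3 library, and 11965 met none and are called astrocyte-specific. Likewise 78 3T3 sites met a peak of a single astrocyte library and 2594 met none. Of the shared sites, 90 had a peak in all 5 libraries. The intervals cover counting error only. Where a peak was required in every library of a cell type, 91 of 1826 astrocyte sites were shared (4.98%) and 93 of 2885 3T3 sites (3.22%).

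Peaks of both cell types overlapped at the shared sites, but their summits, the positions of highest signal, did not always coincide. For astrocyte replicates 1 and 3 the median distance to a 3T3 summit was 56.5 to 66 bp, with 38.5% to 49.0% within 50 bp. For replicate 2, with its short list, the medians were 31 and 40 bp. Between replicates of a cell type they were 28 to 41 bp, with 61.5% to 70.7% within 50 bp. In astrocytes the peaks on shared sites ranked higher by q, but not by fold enrichment. By rank of q within its library, the median peak on a shared site stood at the 67.3rd, 71.1st and 77.8th percentile in the 3 astrocyte libraries, against 53.6, 49.9 and 67.5 for the astrocyte-specific sites. Median fold enrichment was 6.42, 5.71 and 7.74 on shared and 6.39, 6.09 and 8.20 on astrocyte-specific sites, and so lower on shared sites in 2 of 3 libraries. In the 3T3 libraries the medians were 65.8 and 65.7 for shared against 65.8 and 64.0 for 3T3-specific sites.

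The 12 shared GRE sites without a vehicle, DR or GR-KO peak lay near known hormone targets and near genes with other roles. At Per1, a core clock repressor and a classical GR target, fold enrichment over background was 15.5, 7.6 and 26.4 in the astrocyte libraries and 19.2 and 20.3 in the 3T3 libraries, and the site lay in an intron of the gene. The astrocyte and 3T3 values overlapped. At Klf9, a transcriptional repressor induced by corticosteroids, the values were 6.4 and 22.5 in astrocyte replicates 1 and 3 and 8.8 and 7.3 in 3T3 cells, at an annotated start upstream of the main gene start.

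At Zbtb16, which encodes the zinc finger factor PLZF, the peak lay in an intron, with 8.3 and 9.2 in astrocyte replicates 1 and 3 and 13.7 and 16.1 in 3T3 cells. At Mt1, a metal-binding metallothionein, the peak lay at the promoter with 9.6 in both astrocyte replicates 1 and 3 and with 8.7 and 6.3 in 3T3 cells. Of the 12 sites, the fold values of both cell types overlapped at 6, the astrocyte values were higher at 3 and the 3T3 values at 3. Zbtb16 was higher in both 3T3 libraries and Mt1 higher in both astrocyte libraries that had a peak. Astrocyte replicate 2 was called at 3 of the 12 sites, near Per1, Sept9 (a septin) and Idh2 (the mitochondrial isocitrate dehydrogenase). All 12 sites had an NFIA peak in at least 2 of the 3 astrocyte NFIA libraries and a GR peak in a GR-con library, and 9 had one in 3T3 cells with DEX at 50000 nuclei.

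**Figure D1:**
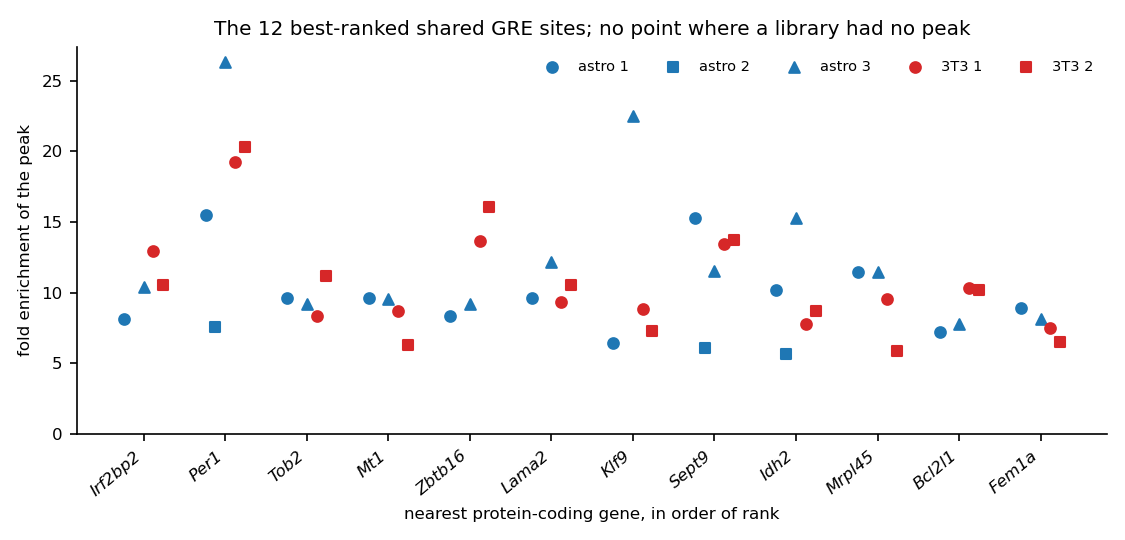
Fold enrichment of the GR peak (y axis, linear, from 0) at the 12 best-ranked shared GRE sites without a vehicle, dark-reared or GR-KO peak, with 1 point per library and astrocytes in blue and 3T3 in red. The ranges of both cell types overlap at 6 of the 12 sites, Per1 carries the highest single value (26.4), and astrocyte replicate 2 has a point at only 3 sites.

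A second set, ranked without regard to the GRE or to the vehicle, DR and GR-KO libraries, holds the 12 best-ranked of the 90 shared sites called in all 5 libraries. They were nearest Haao, Ptms, Stip1, Per1, Frmd8, Dusp1, Spaca6, Trpm3, Mrpl45, Tufm, Hif3a and Pja2, and 8 lay at a promoter. Per1, which is in both sets, was the one with a GRE. The first set was chosen for its GRE and its lack of such peaks, so the sets are not compared in these. Of the 12, 9 also had a peak in a vehicle library of 3T3 cells, 6 in all 4 of these, and 9 in a DR library. Over all 215 shared sites, 28.8% had a peak in a vehicle library and 15.8% in a DR library. At Stip1, which encodes a co-chaperone that links HSP70 and HSP90, fold enrichment was 2.8, 8.6 and 5.6 in astrocytes and 15.3 and 13.2 in 3T3 cells, and all 4 vehicle libraries and all 3 DR libraries had a peak there. Here the 3T3 values lay above every astrocyte value. Hif3a, a hypoxia-inducible factor subunit, had none in these libraries, with 18.1, 6.4 and 37.3 in astrocytes and 25.0 and 17.6 in 3T3 cells at a promoter.

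Libraries that took no part in defining the sites separated the shared sites further. Of the 215, 128 (59.5%) had no peak in any vehicle, DR or GR-KO library, and 87 had one. A GRE lay at 21 of the 128 (16.4%) and at 4 of the 87 (4.60%). Promoters made up 47 of the 128 and 49 of the 87, and a GR peak in a neuron library was present at 31 and 47 of them. The site counts use every summit of a site. With the best-ranked summit alone, 13 of the 128 and 2 of the 87 had a GRE. The DR, GR-KO and vehicle lists were short (28 to 293, 413 to 1846 and 189 to 1035 peaks), so an absent peak there does not show an unbound site.

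The libraries of GR-con astrocytes had a peak at 74.2% ± 2.96 (SD, n = 2) of the shared sites and at 43.0% ± 0.443 of the astrocyte-specific sites. In GR-KO astrocytes the shares were 9.53% ± 3.62 and 6.65% ± 6.99 (n = 2). Both GR-con libraries lay above both GR-KO libraries for both classes. The GR-con lists were also longer, with 7761 and 6792 peaks against 1846 and 413, and the part of list length in these shares was not tested. At the 3T3-specific sites the GR-con shares were 0.578% and 0.0386%. These sites were defined by having no peak in the NR astrocyte libraries, so low shares follow in large part from the definition. NFIA in astrocytes had a peak at 94.7% ± 2.29 (n = 3) of the shared and 93.9% ± 1.42 of the astrocyte-specific sites, against 2.03% ± 0.703 of the 3T3-specific sites. The NFIA lists held 22373 to 27143 peaks.

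Among 3T3 libraries, DEX at 50000 nuclei had a peak at 21.4% and 38.6% of the shared and 22.1% and 39.1% of the 3T3-specific sites. Vehicle at 250000 nuclei had one at 15.8% and 25.1% of the shared and 8.94% and 17.6% of the 3T3-specific sites. Vehicle at 50000 nuclei gave 11.2% and 14.4% of the shared and 4.66% and 7.21% of the 3T3-specific sites. All 6 of these libraries had a peak at no more than 0.209% of the astrocyte-specific sites. Those sites were defined by having no peak in 3T3 cells with DEX at 250000 nuclei, so low shares follow in large part from the definition. In the neurons the shared sites were again called more often, with 3.26% to 30.2% in excitatory and 7.91% to 26.5% in inhibitory neurons, against at most 9.64% and 6.19% of the astrocyte-specific sites. Oligodendrocyte libraries reached 7.91% of the shared sites. These lists held 61 to 4563 peaks in excitatory neurons, 916 to 2446 in inhibitory neurons and 4 to 110 in oligodendrocytes. The 3T3 lists with DEX at 50000 nuclei held 720 and 1391.

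**Figure D2:**
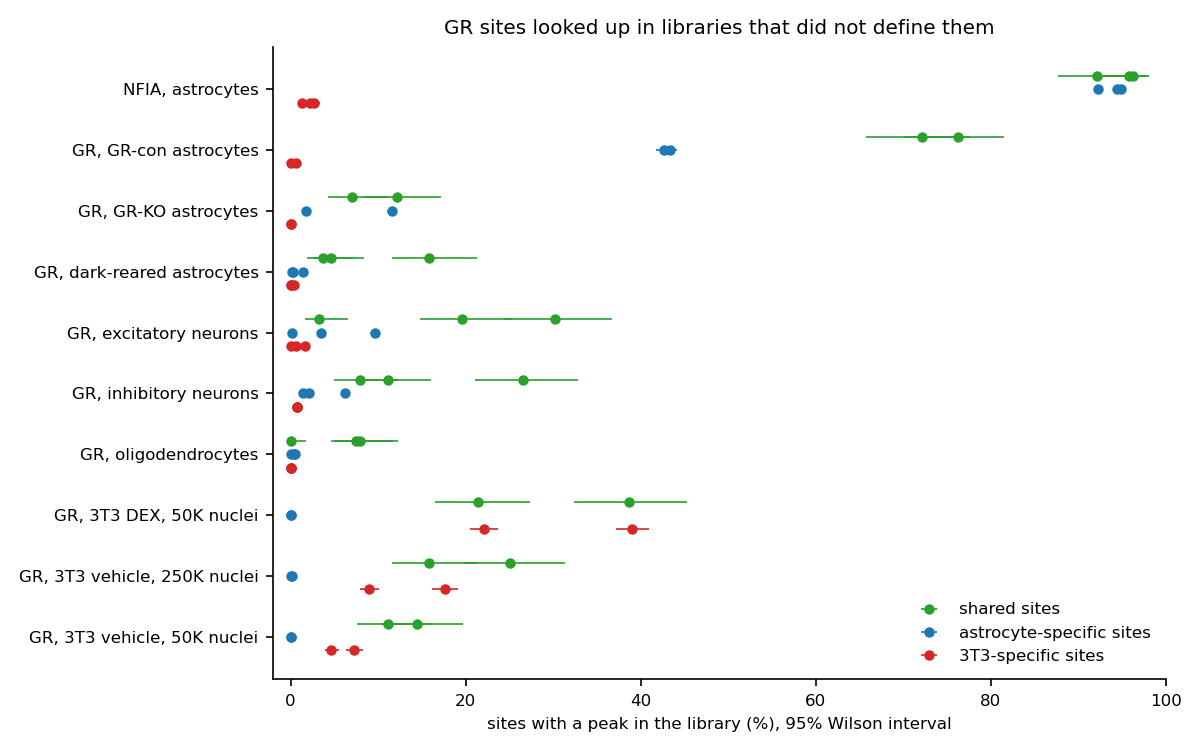
Percent of shared (green), astrocyte-specific (blue) and 3T3-specific (red) GR sites with a peak in each library that did not define them, with 1 point per library and its 95% Wilson interval. NFIA in astrocytes covers both astrocyte classes (92.1% to 96.3%). The 3T3 libraries cover part of the shared and 3T3-specific sites. They cover almost no astrocyte-specific ones, which by definition had no peak in the 3T3 libraries compared.

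Astrocyte GR lay at promoters far more often than 3T3 GR. A summit within 500 bp of an annotated transcription start was found for 43.2%, 30.2% and 44.6% of the peaks in astrocyte replicates 1 to 3 and for 9.24% and 8.75% in the 3T3 libraries. The libraries did not overlap, and the means differed by 30.3 percentage points (two-sided exact permutation p = 0.2, the smallest that 3 against 2 libraries allow). This and every later p-value measures only the spread between these libraries, which may be technical in part. By site, 5440 of 11965 astrocyte-specific sites (45.5%), 96 of 215 shared sites (44.7%) and 120 of 2594 3T3-specific sites (4.63%) were promoters. The sequence within 50 bp of the astrocyte summits was also richer in G and C, at 58.5%, 52.3% and 59.1% against 46.8% and 47.0% in 3T3 cells, and the part of base composition in the motif shares below was not tested beyond the promoter-distal values given.

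The GRE was more frequent at 3T3 summits. Within 50 bp of the summit the pattern was present in 0.671%, 0.928% and 0.543% of the astrocyte peaks and in 3.77% and 4.04% of the 3T3 peaks. Windows of the same length 1 kb away held it in 0.111% to 0.182% and 0.299% to 0.301%, and 0.116% of 32817 RefSeq promoters (GRCm38.p6) trimmed to the same length held it. All libraries thus lay above their flanks, and the 3T3 libraries above all astrocyte libraries (difference -3.19 percentage points, exact permutation p = 0.2, adjusted 0.231 over 15 motifs). Among the 2000 strongest peaks of each library, the shares were 1.4%, 1.0% and 0.5% in astrocytes and 6.6% and 5.65% in 3T3 cells.

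AP-1 gave the largest difference of the 15 patterns. TGANTCA was present at 2.28%, 2.96% and 2.44% of the astrocyte summits and at 27.5% and 28.1% of the 3T3 summits. The flanks held it in 2.67% to 2.96% and 3.17% to 3.40%, and promoters of the same length in 3.03%. Astrocyte summits were therefore at the level of their flanks, and the cell types differed by -25.2 percentage points (exact permutation p = 0.2, adjusted 0.231). TEAD, the DNA-binding partner of the Hippo effectors YAP and TAZ, followed the same order. ACATTCC was present at 1.45%, 1.19% and 1.31% of astrocyte and 5.93% and 5.65% of 3T3 summits, against 1.36% of promoters.

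The NFI half-site was common in both cell types. TTGGCA was found at 12.4%, 15.3% and 12.1% of astrocyte and 10.9% and 10.8% of 3T3 summits, against about 5% in the flanks of every library (means 5.06% and 5.10%) and 4.92% of promoters. The astrocyte libraries lay above the 3T3 libraries by 2.47 percentage points (exact permutation p = 0.2, adjusted 0.231). Among the 2000 strongest peaks they overlapped, with 13.35%, 15.65% and 10.65% in astrocytes and 11.65% and 11.15% in 3T3 cells (exact permutation p = 0.6). Outside promoters the astrocyte shares were 18.04%, 18.7% and 17.9% against 11.3% and 11.2%.

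Promoter patterns were higher in astrocytes. The CCAAT box, bound by NF-Y, was present at 19.1%, 30.1% and 22.3% of astrocyte and 14.7% and 14.8% of 3T3 summits, and the GC box GGGCGGG of SP and KLF factors at 13.4%, 8.62% and 15.0% against 2.08% and 1.80%. Promoters held CCAAT in 18.2% and the GC box in 12.3%. Away from promoters the GC box fell to 2.86%, 1.33% and 3.46% of astrocyte summits, and 1.10% and 0.824% of 3T3 summits. TAATTA, the core of LHX and other homeobox sites, was present at 2.15%, 4.33% and 2.29% of astrocyte and 0.898% and 1.07% of 3T3 summits, and its astrocyte mean (2.92%) was close to that of the astrocyte flanks (2.64%). Of the 15 patterns, 13 did not overlap between the cell types, and 8 of the 13 were higher in astrocytes.

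**Figure D3:**
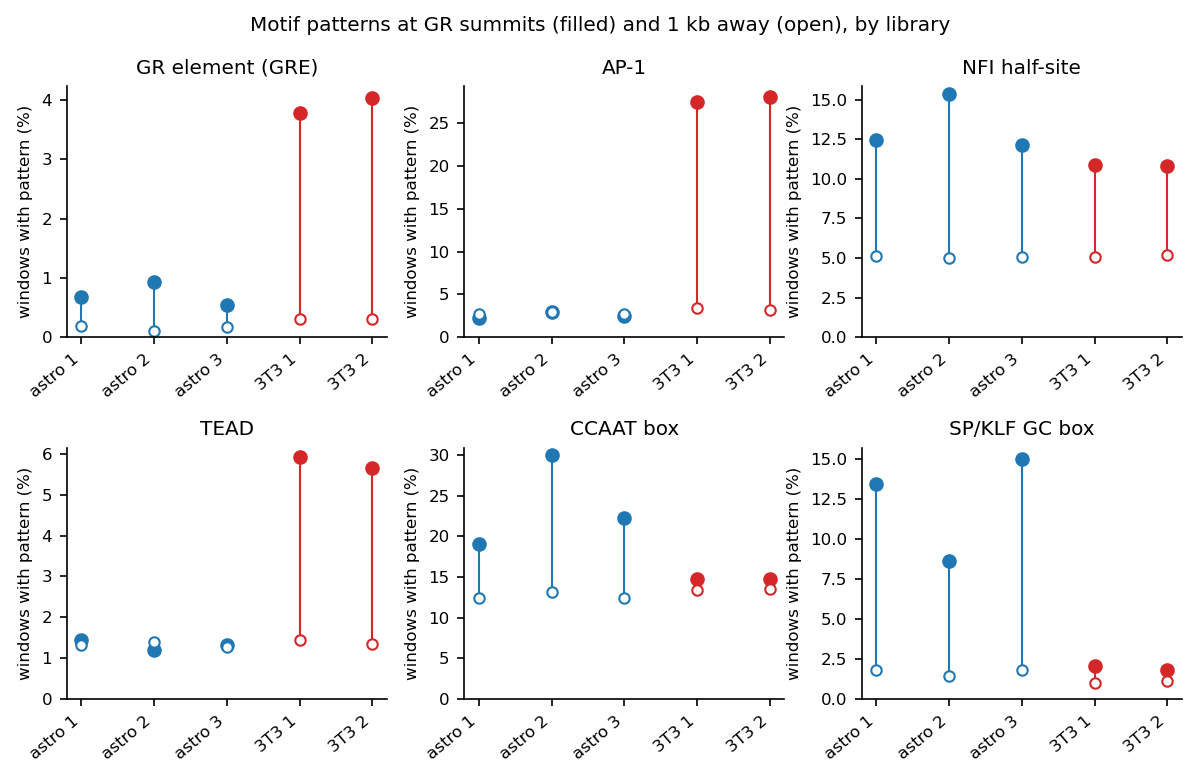
Percent of windows (50 bp to either side) with a pattern at GR summits (filled) and 1 kb to either side (open) in each of the 5 libraries, astrocytes in blue and 3T3 in red. AP-1 and TEAD stand far above the flanks in 3T3 cells and near them in astrocytes, the NFI half-site stands above in all 5 libraries, and the GC box mainly in astrocytes.

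Within a library, shared and cell-specific sites were then compared. GRE was more frequent on shared sites in 5 of 5 libraries. The share was 5.85%, 2.73% and 5.99% of peaks on shared sites in astrocytes and 8.37% and 6.91% in 3T3 cells, against 0.542%, 0.733% and 0.592% and 4.73% and 4.75% on cell-specific sites (mean difference 3.70 percentage points, exact sign-flip permutation p = 0.0625, the smallest that 5 libraries allow, adjusted 0.234). With sites redefined without astrocyte replicate 1 or without replicate 3 the mean difference was 1.08 or 0.956 points. Away from promoters the shared values were 9.73%, 2.17%, 8.33%, 10.9% and 9.09% and the cell-specific values 0.891%, 0.882%, 0.994%, 4.57% and 4.70% in the same order (higher in 5 of 5, permutation p = 0.0625, adjusted 0.188). Astrocyte replicate 2 had 110 shared peaks, 46 of them away from promoters, so its shared values rest on very few peaks with a GRE. The peaks of the 5 libraries lie on the same 215 regions, so the libraries are not independent samples of DNA.

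AP-1 went in opposite directions. In astrocytes it was present on 5.85%, 5.45% and 8.29% of shared peaks against 1.97%, 2.46% and 2.09% of astrocyte-specific ones, and in 3T3 cells on 10.2% and 11.1% of shared against 29.5% and 29.6% of 3T3-specific peaks. The shared sites thus lay between both specific classes. The CCAAT box was higher on shared sites in 5 of 5 libraries (mean difference 15.4 percentage points, exact permutation p = 0.0625, adjusted 0.234), but away from promoters in 2 of 5. The promoter share was 44.9%, 58.2%, 44.7%, 44.7% and 44.2% on shared peaks, so that it exceeded that of specific peaks by far in 3T3 cells (4.80% and 4.67%), and in 1 of the 3 astrocyte libraries, replicate 2 (28.7%), but not in replicates 1 and 3 (45.7% and 45.4%).

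**Figure D4:**
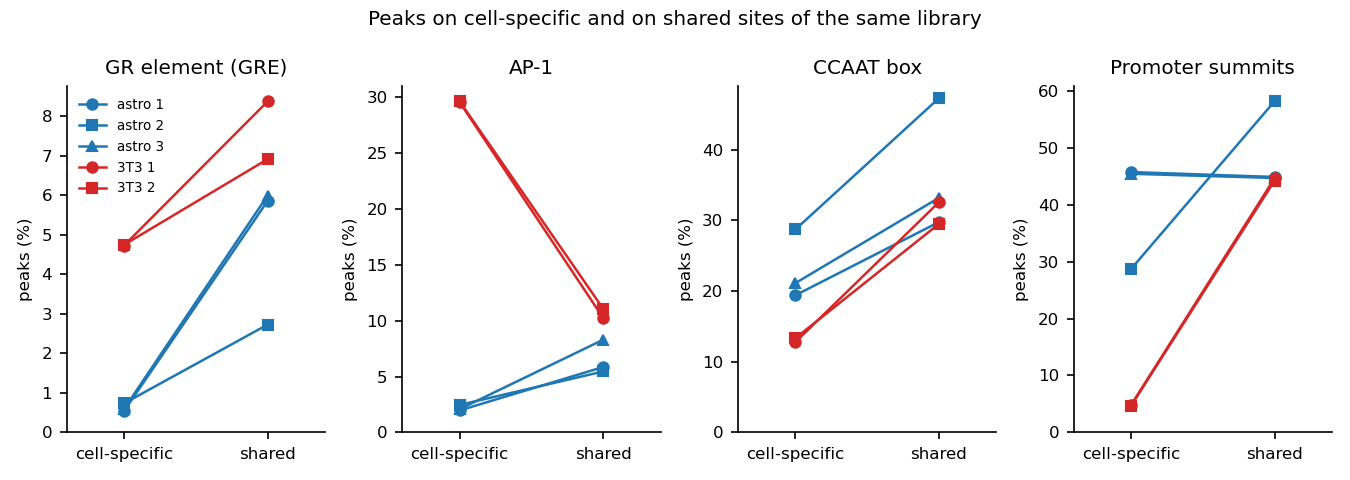
Percent of peaks with a GRE, an AP-1 pattern, a CCAAT box or a summit within 500 bp of a start, on cell-specific and on shared sites of the same library, each line 1 library (astrocytes blue, 3T3 red). GRE and CCAAT rise toward shared sites in all 5 libraries, and AP-1 rises in astrocytes and falls in 3T3 cells.

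Among the 12 best-ranked cell-specific sites, 2 were promoters in each cell type. This lay below the share of all astrocyte-specific sites (45.5%) and above that of all 3T3-specific sites (4.63%). In the 3T3 set both promoters were the sites nearest Esp38, which overlap an annotated ribosomal RNA gene and are uncertain. The 12 best-ranked astrocyte-specific sites called in 3 of 3 libraries were nearest Lpp, Fbxo2, Ntm, Cst3, Tmem161b, Plpp3, Sfxn5 (with 2 sites), Gm9833, Zfp36l1, Aqp4 and Gnao1. None had a GRE, 5 had an NFI half-site, and all 12 had an NFIA peak in 3 of 3 libraries and a GR peak in both GR-con libraries. At Aqp4, the water channel of astrocyte endfeet, fold enrichment was 17.8, 12.3 and 30.2 in an intron. At Cst3, the secreted protease inhibitor cystatin C, it was 9.4, 12.6 and 21.5. Of these 12 sites, 10 also had a GR-KO peak in at least 1 library and 5 a DR peak. Over all 11965 astrocyte-specific sites, 12.5% had a GR-KO peak and 1.50% a DR peak. An NFI half-site lay at 16.5% of them and a GRE at 0.802%.

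The 12 best-ranked 3T3-specific sites were nearest Snx9, Tmem106b, Uqcc2, Mat2b (238178 bp from its start), Fkbp5, Itga10, Esp38 (with 2 sites), Ets2, Ergic1, Map10 and Rad51b. Of these, 5 had an AP-1 pattern and 2 a GRE, and all 12 had a peak in 3T3 cells with DEX at 50000 nuclei. A vehicle library had a peak at 10 of the 12, 7 of them in all 4, and Fkbp5 and Rad51b were the 2 without. Over all 2594 3T3-specific sites, 38.3% had an AP-1 pattern, 5.94% a GRE and 21.7% a peak in a vehicle library. At the site nearest Snx9 fold enrichment was 34.6 and 35.1, and all 4 vehicle libraries had a peak. Both Esp38 sites overlap an annotated ribosomal RNA gene (CT010467.1), whose reads may be shared with other rRNA copies, and are therefore uncertain, with fold enrichments of 4.9 to 6.8.

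Glucocorticoid target genes had sites of all kinds within 50 kb of a start. Of all 21911 protein-coding genes, 2.03% had a shared site in that distance, 52.4% an astrocyte-specific and 10.3% a 3T3-specific one. Of 32 glucocorticoid targets, 9 had a shared site, namely Per1, Fkbp5, Tsc22d3, Klf9, Dusp1, Nfkbia, Mt1, Mt2 and Hif3a, 25 (78.1%) had an astrocyte-specific and 18 (56.2%) a 3T3-specific site. With sites called in every library, 10 had an astrocyte-specific one, against 10.4% of all genes. Of the 32, 9 had specific sites of both kinds and no shared one (6.23% of all genes). These are counts over lists chosen with results known, and a site near a gene does not show that it acts on it.

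Fkbp5 encodes a co-chaperone of the receptor that lowers its hormone affinity, a negative feedback. Within 50 kb of a start, replicates 1 to 3 of the astrocytes had 0, 1 and 2 peaks. The 3T3 libraries had 23 and 20, from lists with the looser q threshold, so here and at the genes below the numbers of each cell type are given for themselves and are not compared. Fkbp5 has 14 annotated starts, which widens this window, as do the 6 of Dusp1. No other protein-coding gene had as many 3T3-specific sites as its 19. Dusp1 and Ergic1, which share the site chr17:26592485-26592885 in an Ergic1 intron, came next with 10 each. All 19 Fkbp5 sites were without a peak in the vehicle, DR and GR-KO libraries, 8 had a peak with DEX at 50000 nuclei, 2 had a GRE and 5 an AP-1 pattern. Of all 3T3-specific sites, 78.2% were without such a peak, 5.94% had a GRE and 38.3% an AP-1 pattern.

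The strongest of the 19, chr17:28420191-28420728, lay in an intron 65.8 kb from the RefSeq start with fold enrichments of 25.3 and 21.3, and its GRE is printed above. Over the 19 sites fold enrichment ran from 4.12 to 25.3 in replicate 1 and from 4.84 to 21.3 in replicate 2. The single shared site lay at the promoter, chr17:28486117-28486327, without a GRE, with 7.3 and 4.5 in astrocyte replicates 2 and 3 and 5.5 and 5.9 in 3T3 cells. No astrocyte-specific site lay in this window.

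Dusp1, a phosphatase that switches off MAP kinases, had 3, 2 and 8 peaks in the astrocyte libraries, and 12 in each 3T3 library. Its 10 3T3-specific sites all lay upstream of the RefSeq gene. Of these, 8 had no peak in the vehicle, DR and GR-KO libraries, near the 78.2% of all 3T3-specific sites. The 1 astrocyte-specific site lay at the promoter. The shared site downstream of the gene had 6.1, 21.5 and 10.2 in astrocytes and 20.7 and 15.5 in 3T3 cells, with peaks in all 4 vehicle libraries.

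Around Per1, with 9, 2 and 13 astrocyte peaks and 2 and 3 3T3 peaks, lay 2 shared sites, 7 astrocyte-specific and no 3T3-specific ones. Hif3a had 8, 1 and 11 astrocyte peaks and 1 in each 3T3 library, on 1 shared and 7 astrocyte-specific sites. Klf9 had 9, 2 and 9 astrocyte peaks and 3 and 2 3T3 peaks, on 1 shared, 7 astrocyte-specific and 1 3T3-specific site.

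Around Mt1 there were 15, 2 and 14 astrocyte peaks and 6 and 6 3T3 peaks, on 3 shared, 10 astrocyte-specific and 2 3T3-specific sites. The 3 shared sites had no peak in the vehicle, DR and GR-KO libraries, all 3 had one with DEX at 50000 nuclei, and 2 had a GRE. Of all shared sites, 59.5% had no peak in the vehicle, DR and GR-KO libraries and 11.6% had a GRE. Nfkbia, the inhibitor of NF-kappaB, had a shared promoter site with 8.5, 6.0 and 14.3 in astrocytes and 10.0 and 6.3 in 3T3 cells. Tsc22d3, which encodes the anti-inflammatory protein GILZ, had a shared site outside genes with 5.2 and 13.3 in astrocyte replicates 1 and 3 and 8.4 and 7.3 in 3T3 cells. Sgk1, a kinase induced by corticosteroids, had 3 3T3-specific sites and no shared one. The best-ranked of them had 10.4 and 12.9 and no GRE, and the GRE printed above under this name lies at another site.

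**Figure D5:**
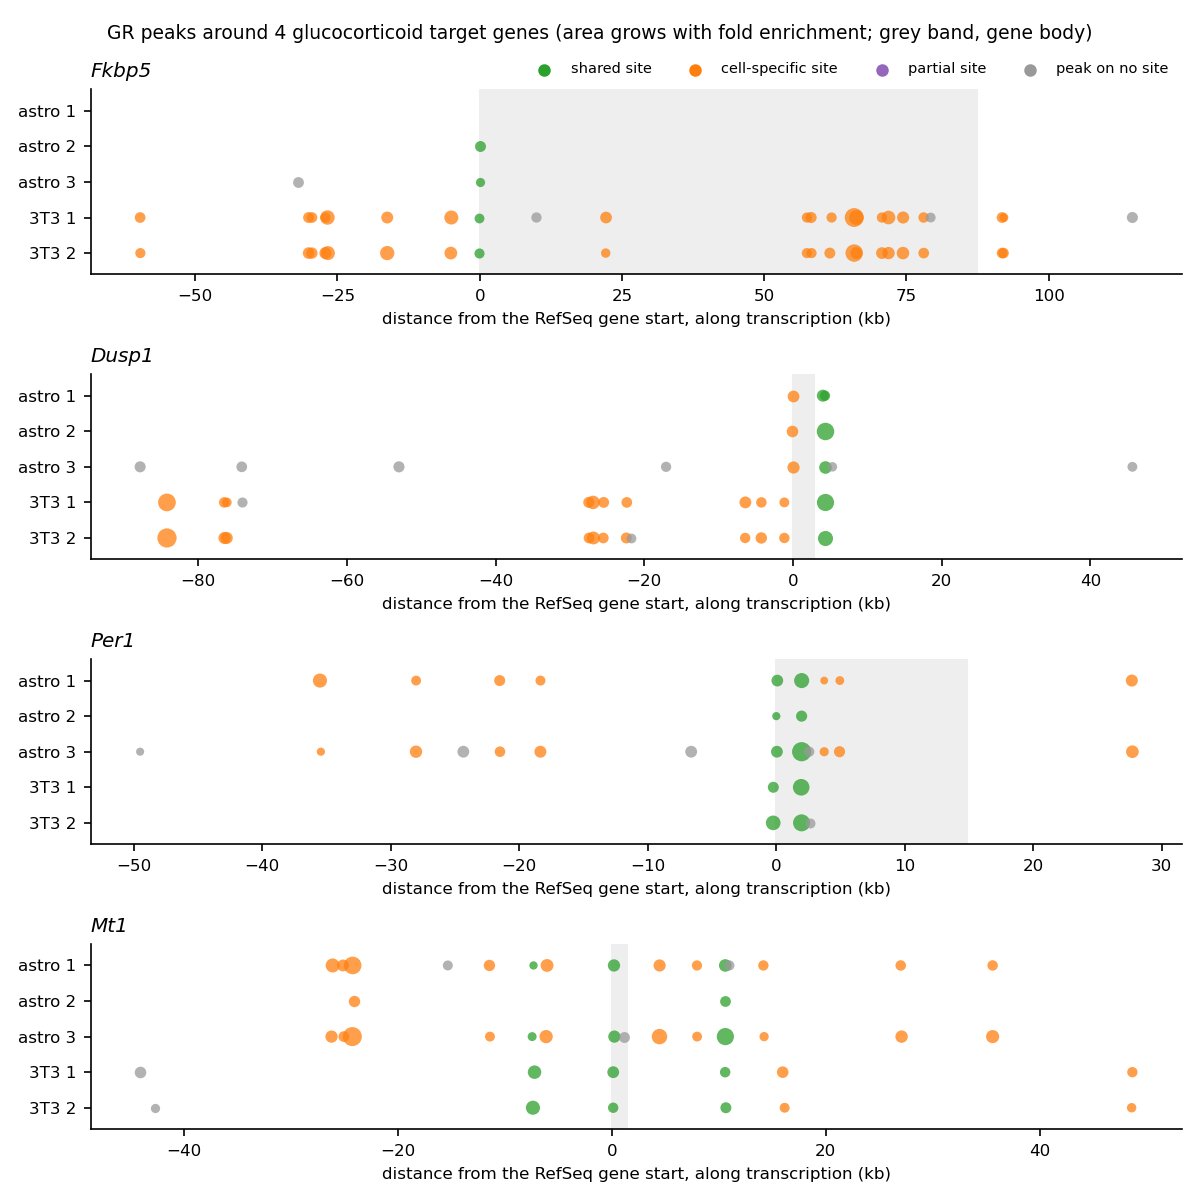
GR peaks of the 5 libraries around Fkbp5, Dusp1, Per1 and Mt1 by distance from the RefSeq gene start (kb, along transcription), with point area growing with fold enrichment, the gene body in grey and colours for the kind of site. The cell-specific peaks around Fkbp5 and upstream of Dusp1 are those of the 3T3 libraries, and around Per1 those of the astrocyte libraries, while Mt1 has both kinds.

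Of 18 genes of the receptor's own machinery (corticosteroid receptors, chaperones and cofactors), 3 had a shared site, 16.7% against 2.03% of all genes. Fkbp5 and Stip1 were among them. An astrocyte-specific site lay near 16 (88.9%, against 52.4%), or near 3 with sites called in every library (16.7%, against 10.4%). A 3T3-specific site lay near 5 (27.8%, against 10.3%). Nr3c1 itself had 3, 0 and 4 astrocyte peaks within 50 kb and none in 3T3 cells. Hspa8, a constitutive HSP70 chaperone, had a 3T3-specific site with 18.4 and 13.4. Of 20 clock genes, 3 (Per1, Nr1d1 and Tef) had a shared site (15%, against 2.03% of all genes). An astrocyte-specific site lay near 18 (90%, against 52.4%), or near 6 with sites called in every library (30%, against 10.4%). A 3T3-specific site lay near 6 (30%, against 10.3%). The Tef site, with a GRE, is the one named after Tob2 above.

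Sites near cell-identity genes checked the labels by location, not by expression. Of 40 astrocyte identity and maturation genes, 39 had an astrocyte-specific site (97.5%, against 52.4% of all genes). A 3T3-specific site lay near 3 (Slc1a3, Sox9 and Aldh1a1), 7.5% against 10.3%, and a shared one near 1 (2.5%, against 2.03%). With sites called in every library of a cell type, 29 of 40 (72.5%) had an astrocyte-specific site against 10.4% of all genes, and 2 of 20 housekeeping genes. With the looser rule all 20 housekeeping genes had one, so that rule separates these lists poorly. Slc1a2, the main astrocyte glutamate transporter, had a site with 13.6 and 22.2 in replicates 1 and 3, and Gfap, the intermediate filament, one with 11.6 and 21.9. Glul, the glutamine synthetase that glucocorticoids also induce, had a promoter site with 15.0, 8.4 and 26.2.

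Aldoc, a glycolytic enzyme marking astrocytes, had 5, 1 and 10 astrocyte peaks and none in 3T3 cells, and Gjb6, the gap junction protein connexin 30, had 4, 3 and 5 and none. Cables1 had 1, 0 and 4, Etnppl, a phospholipid-metabolism enzyme, 1, 1 and 2, and Ezr, which encodes the membrane linker ezrin, 3, 0 and 6, with none in 3T3 cells. Aldh1a1, a retinaldehyde dehydrogenase, had 1, 1 and 3 astrocyte peaks and 5 in each 3T3 library, on 1 astrocyte-specific and 3 3T3-specific sites. Fam107a, a stress-responsive actin-binding protein, had 4, 2 and 9 astrocyte peaks and 1 in each 3T3 library, and was the identity gene with a shared site, a promoter with a GRE and folds of 7.9, 5.3 and 19.5 in astrocytes and 6.1 and 6.7 in 3T3 cells. Within 50 kb Zbtb16 had a peak in astrocyte replicate 3 alone, its shared GRE site lying farther into the gene.

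The most astrocyte-specific sites of any gene, 21, lay around Nfix, and 18 each around Igsf8 and Aldh1l1, the folate enzyme used as a pan-astrocyte marker. Klf15, a glucocorticoid-induced factor, had 17, but neighbours Aldh1l1 and shares sites with it, its strongest included. Of 18 genes for synapse organisers made by astrocytes, 11 had an astrocyte-specific site, 61.1% against the 52.4% of all genes. With sites called in every library 5 of 18 had one (27.8%, against 10.4%). Of these genes, 4 had a 3T3-specific (22.2%, against 10.3%) and 1 (Sparc) a shared site (5.56%, against 2.03%). At Sparcl1, which encodes hevin, a synaptogenic matrix protein, the values were 13.4 and 27.0 in replicates 1 and 3. Lgi1, a secreted ligand of synaptic ADAM proteins, had one with a GRE and 14.7, 9.8 and 12.

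Of 30 fibroblast matrix and cytoskeleton genes, 17 had a 3T3-specific site (56.7%, against 10.3% of all genes). An astrocyte-specific site lay near 10 (33.3%, against 52.4%), or near 1 with sites called in every library (3.33%, against 10.4%). A shared site lay near 2, Thy1 and Timp3 (6.67%, against 2.03%). Lox, which crosslinks collagen, had 15.9 and 12.1 and Col6a2, a collagen VI chain, 12.9 and 10.6, with a GRE. Ccn1 and Ccn2, matricellular genes and classical targets of YAP and TEAD, had 3T3-specific sites with 12.5 and 10.5 and with 7.6 and 5.9. Of 18 Hippo and TEAD genes, 9 had a 3T3-specific site (50.0%, against 10.3% of all genes). An astrocyte-specific site lay near 13 (72.2%, against 52.4%), or near 6 with sites called in every library (33.3%, against 10.4%). A shared site lay near 1, Vgll4 (5.56%, against 2.03%). Of 20 immediate early and AP-1 genes, 3 had a 3T3-specific site (15%, against 10.3%) and 17 an astrocyte-specific one (85%, against 52.4%). With sites called in every library 2 of 20 had an astrocyte-specific one, near the 10.4% of all genes. Jun had a shared promoter site with 4.0, 7.0 and 6.1 in astrocytes and 9.8 and 5.9 in 3T3 cells.

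Markers of other cells in the cortex had no shared site in any of 5 lists, where the share of all genes is 2.03%. Astrocyte-specific sites lay near 4 of 15 excitatory neuron, 4 of 17 inhibitory neuron, 9 of 18 oligodendrocyte lineage, 3 of 13 microglia and 2 of 16 endothelial and mural markers, where the share of all genes is 52.4% and that of the oligodendrocyte list 50.0%. Where a peak was required in all 3 astrocyte libraries, 2 inhibitory neuron and 3 oligodendrocyte lineage markers (Olig1, Olig2 and Myrf) had one, and no excitatory neuron, microglia or endothelial and mural marker. These are 11.8% and 16.7% of their lists, against 10.4% of all genes. A 3T3-specific site lay near 25.0% of the endothelial and mural, 16.7% of the oligodendrocyte lineage, 15.4% of the microglia, 6.67% of the excitatory and 5.88% of the inhibitory neuron markers, against 10.3% of all genes. A role of other cells in the sorted nuclei was not tested.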

How the data were processed

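GR and NFIA binding was measured by CUT&RUN. Groups and replicates follow the sample labels. According to the study's methods and the submitters' processing notes, trimming by the authors used cutadapt, alignment to mm10 used Bowtie2, filtering used Picard, SAMtools and deepTools, and peaks were called per library against IgG with MACS2; the study states the versions, which are not repeated here. Deposited with each peak are its fold enrichment, a ratio, and the −log10 of its p-value and of its q-value, all from the authors' caller. No source names the IgG library behind each call, and any effect of it was not tested. Of 50 samples, 39 had a peak list used here.

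Peaks were merged by 1 bp overlap in Python 3.11.15 (numpy 2.4.6, pandas 2.3.3, scipy 1.17.1). Sites needed 2 libraries of a cell type, and shared sites overlapped a site of the other. Promoters lay within 500 bp of a GENCODE start, of protein-coding or other genes. Patterns were GRE (GNACA and TGTNC, 3 bases apart), its core ACANNNTGT, the full NFI site (TTGGC and GCCAA, 5 bases apart), the NFI half-site TTGGCA, AP-1 TGANTCA, CREB TGACGTCA, TEAD ACATTCC, RUNX TGTGGTT, LHX TAATTA, E-box CAGCTG, SOX ACAATGG, the CTCF core by its name, ETS CCGGAAG, NF-Y CCAAT and SP/KLF GGGCGGG. Both strands were searched within 50 bp of summits and in windows of that width 1 kb away. The GRE contains its core. Libraries were compared by two-sided exact permutation with Benjamini-Hochberg adjustment over 15 motifs. Code was tested on simulated peaks.

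Named sites were the 12 best of each class by mean percentile of q, and the 12 best shared GRE sites without vehicle, DR or GR-KO peaks. Genes of 14 lists with a site within 50 kb and genes that the study's text names were also described, lists by examples. Members and lists were chosen with earlier results of these data known. The alternatives were a q under 0.01 throughout, sites called in every library, 50% overlap, the 2000 strongest peaks, wider windows, promoter-distal summits, starts within 2000 bp, other gene distances, rank by fold, a replicate block and leaving out each library.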

Additional observations from a re-analysis of the deposited data

Results flagged for a closer look

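For 6 patterns the difference between shared and cell-specific sites had one sign in all 3 astrocyte libraries and the opposite sign in both 3T3 libraries. The difference between the cell types was not tested. For AP-1 the shared minus cell-specific share was 4.36 percentage points on average in astrocytes and -18.9 in 3T3 cells (3T3 minus astrocytes -23.3). The GRE core ACANNNTGT gave 4.59 and -1.52 (-6.10), and TEAD gave 1.25 and -2.69 (-3.94). The reverse order was found for the E-box CAGCTG with -2.65 and 2.13 (4.78), for the CTCF core with -1.43 and 0.315 (1.75), and for the CREB site TGACGTCA with -1.06 and 0.311 (1.37).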

How the results depend on the processing

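Of 496 recomputed values, 432 kept their direction and size, 36 moved and 28 changed sign. The thresholds of the lists and the overlap rule mattered little: with q under 0.01 in every library the NFI half-site difference between shared and specific sites turned to 0.303, and no other value moved or turned, and none did with 50% overlap or starts within 2000 bp. Differences near 0 between shared and specific sites turned most often. With sites called in every library they became -0.239 (GRE core), 0.386 (TEAD), 0.344 (E-box) and 1.16 (ETS), in wider windows 0.139 (CREB), 0.204 (TEAD), 1.16 (E-box) and 0.0925 (ETS), and away from promoters 2.03 (NFI half-site), 0.914 (TEAD) and 0.484 (ETS). The 2000 strongest peaks gave 0.822 (NFI half-site) and 0.999 (ETS). The NFI half-site no longer separated the cell types among the 2000 strongest peaks. The SOX difference between cell types turned to 0.133 with the 2000 strongest peaks and 0.436 away from promoters. GRE, AP-1 and the promoter share kept their direction between cell types in every alternative run.

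Requiring every library raised the shared percent of astrocyte sites to 4.98 and lowered that of 3T3 sites to 3.22, and 7 patterns then had one sign in all libraries. GR-con shares rose to 93.4% of shared and 86.6% of astrocyte-specific sites, and NFIA to 98.5% of shared sites. Astrocyte-specific sites lay near 10 glucocorticoid targets and 2 housekeeping genes, and shared ones near 0 fibroblast genes, as also within 20 kb. Within 100 kb, 2 astrocyte identity genes had a shared site. By fold enrichment, 6 of the 12 named astrocyte-specific sites stayed among the best 12.

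Astrocyte replicates 1 and 3 carried most calls, since a site then needs replicate 2. Leaving out replicate 1 gave 5.28% of astrocyte and 3.78% of 3T3 sites shared, and leaving out replicate 3 gave 4.90% and 3.15%. Without replicate 1, GRE core, CREB and ETS turned to -2.05, 0.113 and 1.26. Without replicate 3, GRE core, CREB, TEAD, E-box and ETS turned to -1.26, 0.0981, 0.0341, 0.855 and 1.22, and without replicate 2 the E-box turned to 0.256. Without 3T3 replicate 1, TEAD and ETS turned to 0.553 and 0.0263 and 2.70% of astrocyte sites were shared, and without 3T3 replicate 2, ETS turned to 0.247 and 2.95% were shared. Over all left-out libraries the shared percent ran from 1.62 to 5.28 (astrocyte sites) and 3.15 to 7.43 (3T3 sites), and patterns of one sign from 4 to 7. GR-con shares ran from 70.6% to 93.3% (shared) and 42.8% to 86.4% (astrocyte-specific), and NFIA shares from 92.6% to 98.5% (shared) and 1.77% to 3.64% (3T3-specific). Without astrocyte replicate 1 or 3, glucocorticoid targets with an astrocyte-specific site fell to 10 (range 10 to 25), housekeeping genes to 2 (2 to 20) and fibroblast genes with a shared site to 0 (0 to 2). Without either 3T3 replicate, 2 astrocyte identity genes had a shared site (1 to 2). The excess of shared over specific peaks ran from 0.956 to 4.57 points for GRE, -2.05 to 3.00 for its core, -0.542 to 0.113 for CREB, -0.629 to 0.553 for TEAD, -1.40 to 0.855 for the E-box, -0.652 to 1.26 for ETS and 18.98 to 43.7 for promoters.

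Replicate numbers are shared by 2 pairs and nothing shows that they pair samples. With the number as a replicate block, the promoter difference was 27.7 points, GRE -3.11 and AP-1 -25.2 (smallest exact permutation p 0.5), and 14 of 15 patterns had one sign in both pairs. With 3 against 2 libraries no test could pass 0.05.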
